A study of Mus musculus with 24 samples.

Results

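The primitive streak transcription factors T (Brachyury), Eomes, Mixl1, Gsc, Lhx1 and Evx1 were followed through the accessible chromatin of a differentiation time course. They are 6 of 21631 protein-coding genes on the chromosomes used. Their sites were looked up in deposited ATAC-seq peak lists by a rule that uses gene names and positions and no measured value. A peak belonged to one of them if its summit lay inside the gene's mm10 body, or if the summit lay in no protein-coding gene and that gene's body was the nearest within 50 kb. By this rule 191 of the 518537 peaks belonged to the 6 genes. Overlapping or touching peaks of all lists were merged into 128679 regions, and a region with at least 1 such summit counted as a site of the gene. The 6 genes had 45 of the 96763 sites that all protein-coding genes had under the same rule. The assignment is by position, and it does not show which gene a site acts on.

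The primitive streak is the strip of the gastrulating embryo through which epiblast cells leave to become mesoderm and endoderm. Nodal, WNT, BMP and FGF signals pattern it, and these T-box and homeodomain factors are switched on there in overlapping domains and switched off as the daughter tissues form. Embryonic stem cells driven towards heart muscle pass through a comparable state before they become cardiac mesoderm.

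The cells were A2lox.cre, a mouse embryonic stem cell line built so that transgenes can be placed at 1 chosen locus by Cre recombination. Its 24 samples cover 12 time points of cardiac differentiation, with 2 biological replicates apiece: 2i (culture in a medium with a pair of kinase inhibitors that holds cells naive), D0 to D8 by day, D10 and D15. The submitters label the D10 and D15 samples cardiomyocyte. All samples come from this 1 line with no difference in genotype, and each is a whole culture, so fewer cells of a type and less accessibility per cell cannot be told apart. ATAC-seq marks accessible DNA by the insertion of a transposase. Each time point has 1 peak list shared by both replicates, so no spread between replicates and no test could be given. The lists held 31324 peaks (D1) to 66993 peaks (D7), and read depth is not given in the sources used here. A site absent from a list was not called there, which does not show that it was closed.

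The 300 bp around the annotated start are shown first, for 4 of the genes, because the lists in which this window was called differed between them. The entries run 5′ to 3′ along the gene from 250 bases before the start to 50 bases after it, and are RefSeq's for GRCm38.p6, the assembly that mm10 names. They lie at chr17:8434173-8434472 (plus strand) for T, chr9:118477939-118478238 (plus) for Eomes, chr12:104473187-104473486 (minus) for Gsc and chr6:52313248-52313547 (plus) for Evx1. Capitals mark exact matches, on either strand, to the motif letters named after the sequences.
T: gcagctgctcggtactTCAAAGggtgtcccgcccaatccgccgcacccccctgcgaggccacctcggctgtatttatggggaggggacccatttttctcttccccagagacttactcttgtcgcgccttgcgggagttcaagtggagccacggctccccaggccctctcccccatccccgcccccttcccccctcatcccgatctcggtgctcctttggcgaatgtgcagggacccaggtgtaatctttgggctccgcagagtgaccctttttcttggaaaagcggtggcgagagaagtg
Eomes: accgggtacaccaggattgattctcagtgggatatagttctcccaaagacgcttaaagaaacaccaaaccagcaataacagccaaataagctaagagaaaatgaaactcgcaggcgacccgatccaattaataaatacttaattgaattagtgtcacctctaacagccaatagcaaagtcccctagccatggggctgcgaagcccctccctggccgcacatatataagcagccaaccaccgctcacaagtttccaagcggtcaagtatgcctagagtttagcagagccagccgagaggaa
Gsc: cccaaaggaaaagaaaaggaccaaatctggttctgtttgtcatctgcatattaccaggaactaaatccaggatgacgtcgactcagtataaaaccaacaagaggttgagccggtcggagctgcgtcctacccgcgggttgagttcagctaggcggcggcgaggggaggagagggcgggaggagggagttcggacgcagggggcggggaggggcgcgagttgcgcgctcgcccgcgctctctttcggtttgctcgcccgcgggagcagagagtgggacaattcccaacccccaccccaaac
Evx1: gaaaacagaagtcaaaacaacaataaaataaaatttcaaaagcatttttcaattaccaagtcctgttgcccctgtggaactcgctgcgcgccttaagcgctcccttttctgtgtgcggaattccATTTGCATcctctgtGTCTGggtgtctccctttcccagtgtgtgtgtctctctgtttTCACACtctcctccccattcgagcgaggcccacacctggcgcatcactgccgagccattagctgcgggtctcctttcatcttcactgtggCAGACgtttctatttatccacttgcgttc
Of the 6 genes, 5 have such an entry: these 4 and Lhx1, at chr11:84525485-84525784 (minus strand). The TCF/LEF letters CTTTGA occurred once at T, on the reverse strand at -234 bp, and in 16.0% of 32851 promoter entries. TCF/LEF factors are the DNA-binding partners through which WNT signals act. In the Evx1 window the octamer ATTTGCAT, the letters bound by POU factors such as Pou5f1, stood at -126 bp, where 1.74% of entries hold it. The same window held the T-box core TCACAC at -69 bp (14.5% of entries) and the short SMAD box CAGAC at 21 bp and, reversed, at -111 bp (49.6% of entries). Lhx1 had a SMAD box at -60 bp. The Eomes and Gsc windows held none of the letters searched. The longer T-box letters TCACACCT (1.28% of entries, a string that contains the core), FOXH1 AATNCACA (3.60%), the SMAD palindrome GTCTAGAC (0.213%), the letters AGATAA of GATA factors (11.2%) and TAATCC of paired-like factors such as Gsc (7.06%) occurred in none of the 5 windows. A match is a string of letters, not a bound site, and a missing match says only that the letters are not in this window. The GC content was 61.7% at T, 47.3% at Eomes, 60.3% at Gsc, 65.7% at Lhx1 and 48.7% at Evx1, against a median of 52.7% over all entries.

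The start windows of these factors were called mostly from D2 to D8. At 2i a peak overlapped 1 of the 5 windows, that of Gsc, while 39.6% of all 32619 start windows on these chromosomes were overlapped. At D0 it was 2 (Lhx1 and T; 39.6% of all windows), and at D1 it was 0 (36.0%). The count was 4 at D2 (43.6% of all windows), 5 at D3 (44.7%), 5 at D4 (42.5%), 4 at D5 (43.9%) and 4 at D6 (42.0%). At D2 the window without a peak was that of Eomes, and at D5 and D6 it was that of Evx1. The count was 3 at D7 (47.2%) and 3 at D8 (45.4%), for T, Gsc and Lhx1. At D10 and at D15 Gsc was the 1 window of 5 overlapped, against 40.1% and 39.9% of all windows. The share of all windows thus stayed between 36.0% and 47.2%, while the factors' count ran between 0 and 5. None of the 5 windows was overlapped in all 12 lists, as 31.0% of all windows were. With a −log10 q of at least 5 the counts from D2 to D8 were 2, 5, 2, 4, 4, 3 and 2, and those at 2i, D0, D1, D10 and D15 were 0.

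**Figure D1:**
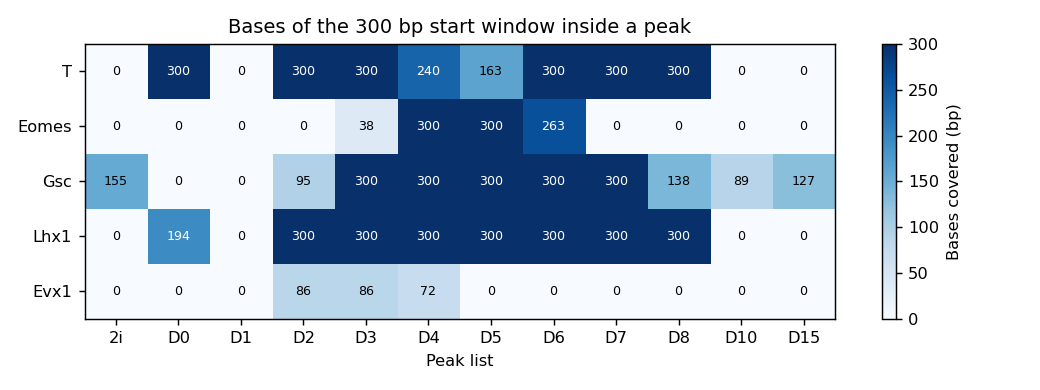
Bases of the 300 bp start window that lay inside a peak (colour and printed number, bp), for the 5 genes with a promoter entry (down) and the 12 peak lists in time order (across). T, Gsc and Lhx1 were covered over a long run of lists, Eomes from D3 to D6 and Evx1 from D2 to D4, with at most 86 bp at Evx1.

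T, the T-box factor needed for posterior mesoderm and notochord, lies on the plus strand at chr17:8434423-8442496 and had 4 sites. Its start is overlapped over 106 bp by LOC115486424, a predicted protein-coding gene at chr17:8432660-8434528. The rule therefore gives that gene the peaks at the T start, all 10 of them with summits at -588 to -145 bp from it. The region, chr17:8433565-8434849, was called at D0 and in every list from D2 to D8, with the D4 and D5 peaks ending before the start base. Its strongest summits had fold enrichments over background of 4.41 (D0), 5.10 (D2), 10.6 (D3), 3.86 (D4), 6.50 (D5), 5.60 (D6), 4.44 (D7) and 3.40 (D8). Fold enrichments are the authors' values for single peaks, ranked here within their own list and not compared between lists. The D3 peak stood at the 69.7th percentile of its list. LOC115486424 also takes a region at -4543 to -4341 bp from the T start (chr17:8429666-8430231), which was called from D1 to D3. With the predicted gene left out, an alternative chosen after seeing the data, T had 5 sites. The 6 genes then had 3 sites called at D1, 13 at D2 and 21 at D3, against 2, 11 and 19 under the rule. No list held fewer of their sites than under the rule.

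Downstream of T, chr17:8468544-8469173 was called from D3 to D8 and in no other list, with summits 34.4 to 34.6 kb after the start, outside the gene. In list order its fold enrichments were 4.19, 3.05, 4.63, 3.32, 6.32 and 5.02, and it ranked highest at D7, at the 63.2nd percentile. Of all 96763 sites 125 had this same set of lists. The other T sites were called in 1 list each, at 21.5 kb (D2) and 22.5 kb (D7) after the start, and at 0.285 kb by a further summit of the D7 peak over the start, in chr17:8433565-8434849. Without the D7 list T had 2 sites, and with equal numbers of peaks per list it had 1.

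Eomes, the T-box factor needed for definitive endoderm and for the earliest cardiac mesoderm, lies on the plus strand at chr9:118478186-118486132 and had 8 sites with 57 peaks. The site at its start, chr9:118477445-118479821, was called in all 12 lists, the only one of the 45. From 2i to D4 the fold enrichments of its strongest summit were 5.62, 6.14, 6.26, 7.27, 9.58 and 4.85, and from D5 to D15 they were 5.96, 6.79, 6.67, 5.10, 5.87 and 4.76. That summit lay inside the gene, 652 to 999 bp after the start, in each list. The 300 bp around the start itself were reached by a peak from D3 to D6, with 38 bp at D3, 300 bp at D4 and D5 and 263 bp at D6. Further summits before the start were called at D4 (-475 bp), D6 (-138 bp) and D7 (-622 bp, a separate peak that ended short of the window). A peak thus lay inside the gene in every list, while one covering the start base was called at D4, D5 and D6.

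Around Eomes, chr9:118486441-118488849 had its nearest summit 0.836 kb beyond the gene and was called at 2i, D0 and D2 to D8. It held 1 summit each at 2i, D0, D2 and D7, and 4 each at D5 and D6. The next site, chr9:118489396-118490111, was called at 2i, D0, D6, D7, D8 and D15, a set of lists that 2 sites of all genes had. Offsets here and below are from the annotated start along the direction of transcription, negative before it. Upstream, chr9:118468204-118468790, at -9.77 to -9.65 kb, was called at D3, D4, D5 and D7 with fold enrichments of 7.47, 6.66, 5.08 and 4.69. It stood at the 74.6th percentile of the D4 list. Farther away, at -33.3 to -32.9 kb, chr9:118444611-118445514, was called at D4, D5, D7 and D8 with 5.16, 3.86, 4.25 and 3.41. Both upstream sites were absent from 2i, D0, D10 and D15. Single-list sites lay at -45.2 kb (D3), -21.7 kb (D4) and -20.1 kb (D3). Summits of these sites fell within long noncoding RNA genes, Platr11, 4933432G23Rik, Gm33285 and Gm33408 upstream and Gm33460 downstream.

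Mixl1, a paired-like homeodomain factor needed for endoderm formation, lies at chr1:180693043-180697034 and had 3 sites. The one at its right end by coordinate, chr1:180696469-180697731, was called in every list from 2i to D8 and in neither D10 nor D15. Its fold enrichments in those 10 lists, from 2i on, were 5.14, 4.56, 4.11, 5.57, 7.93, 6.83, 5.14, 6.57, 6.61 and 5.88, and the D4 peak stood at the 75.9th percentile of its list. This and the Eomes start were the 2 sites of the 6 genes called at D1. The others were chr1:180703300-180703836, 6.42 kb to the right and called at D7 and D8, and a D6 site 12.1 kb to the right.

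**Figure D2:**
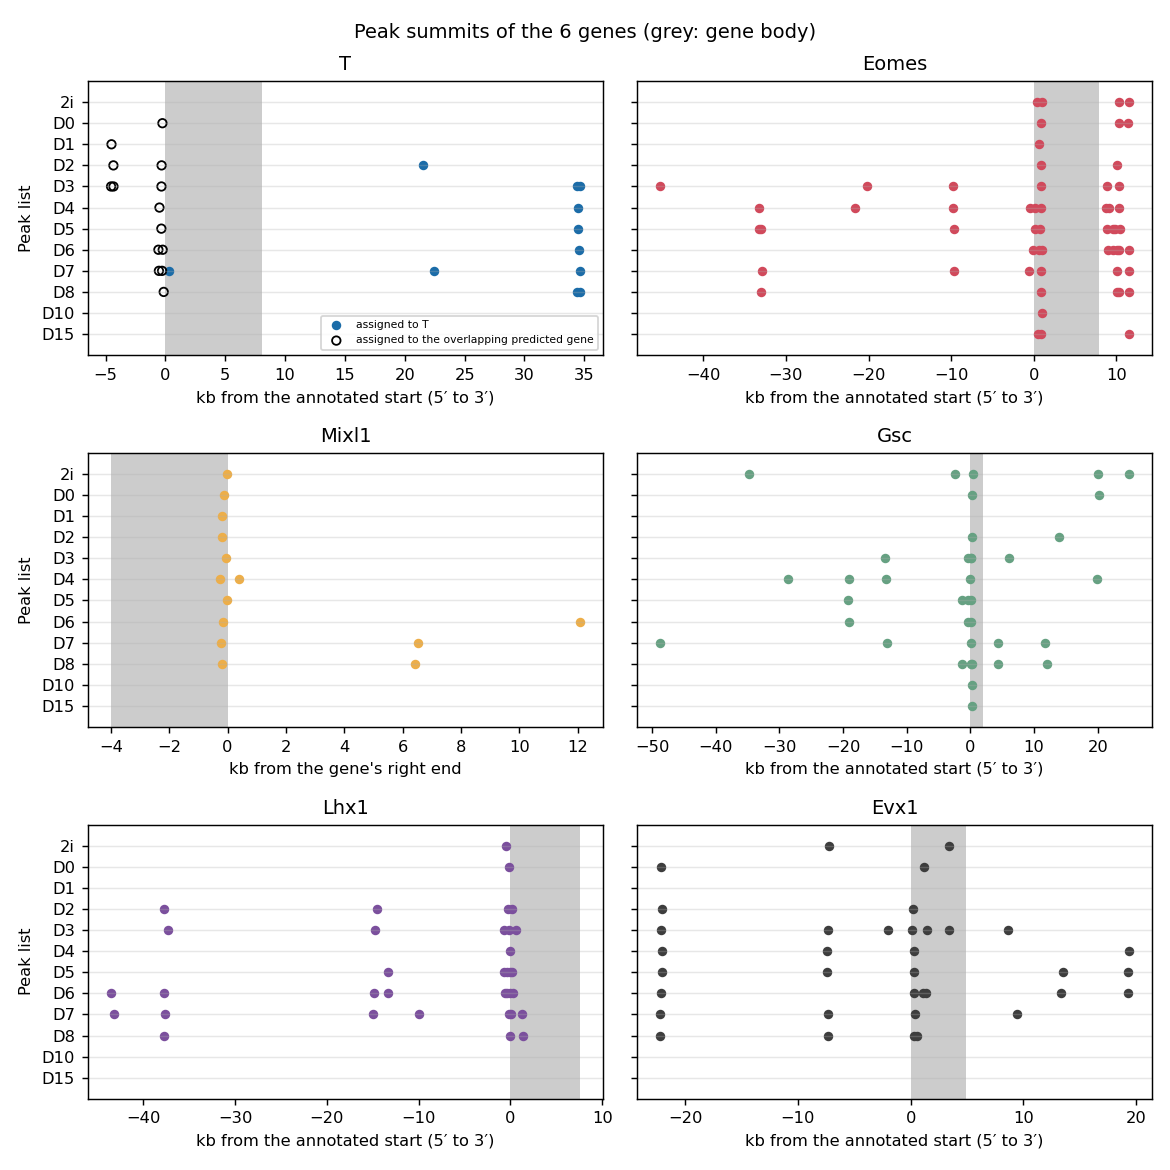
Position of each peak summit relative to the annotated start in the direction of transcription (kb; for Mixl1, relative to the right end by coordinate), with the 12 peak lists in time order down each panel and the gene body in grey. Open circles are peaks near T that belong to the overlapping predicted gene, and among the filled points the D1 and D10 lists hold 2 each, all at gene-end sites.

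Gsc, the homeodomain factor of the anterior streak and organizer, lies on the minus strand at chr12:104471209-104473236 and had 14 sites, the most of the 6. Its surroundings within the rule's reach are wide, at 80.5 kb, as are those of Evx1, at 81.2 kb. Gsc had 1.74 sites per 10 kb, against 0.809 at T, 1.18 at Eomes, 1.52 at Mixl1, 1.17 at Lhx1 and 1.11 at Evx1. The start site, chr12:104472705-104473752, was called in 11 lists, all but D1. Its fold enrichments were 3.23 and 2.85 at 2i and D0, then 5.25, 7.49, 6.42, 6.71, 5.51, 4.89 and 4.04 from D2 to D8, and 3.55 and 3.37 at D10 and D15. Within their lists these peaks ranked between the 0.846th percentile (D0) and the 72.3rd (D4). At D10 and D15 the summit lay 276 and 239 bp inside the gene, and at D4 it lay 5 bp after the start.

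The other Gsc sites were each called in 1 to 3 lists. Beyond the 3′ end, chr12:104452783-104453593, 19.9 to 20.1 kb after the start, was called at 2i, D0 and D4, with fold enrichments of 8.58, 4.41 and 3.43. At 2i it stood at the 89.9th percentile, the highest rank of any peak at the 6 genes. Before the start, chr12:104492200-104492688 (-19.2 to -19.1 kb) was called from D4 to D6 with 5.35, 4.43 and 3.52, and chr12:104486215-104486612 (-13.3 to -13.1 kb) at D3, D4 and D7. A site at -1.37 kb, chr12:104474448-104474761, was called at D5 and D8. Downstream of the start, chr12:104461080-104461714 (11.7 to 12.1 kb) and chr12:104468746-104469095 (4.30 to 4.33 kb) were called at D7 and D8. The 7 single-list sites comprised 3 at 2i (at 24.9, -2.49 and -34.8 kb) and 1 each at D2, D3, D4 and D7. The D4 one, at -28.6 kb, had a fold enrichment of 8.29 at the 85.7th percentile. Summits from the start site to the farthest upstream site lay in the long noncoding RNA gene Gm10000.

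Lhx1, a LIM-homeodomain factor of the anterior mesendoderm needed for head formation, lies on the minus strand at chr11:84517975-84525534 and had 7 sites. The start site, chr11:84524797-84526514, was called at 2i, D0 and D2 to D8. Its fold enrichments were 3.14 and 3.59 at 2i and D0, and 3.38, 6.21, 4.12, 3.87, 4.90, 4.26 and 5.05 from D2 to D8. It held 1 summit at 2i, D0, D4 and D8, 2 at D2 and D7, 3 at D3 and 4 at D5 and D6. Most of the other Lhx1 sites, 5 of 6, were called in 2 or more lists in a row between D1 and D8 and missing from 2i, D0, D10 and D15. They were chr11:84562805-84563478 (-37.8 to -37.3 kb, at D2, D3 and D6 to D8), chr11:84539975-84540851 (-15.0 to -14.5 kb, at D2, D3, D6 and D7) and chr11:84568572-84569191 (-43.5 to -43.2 kb, at D6 and D7). The remaining ones were chr11:84538666-84539009 (-13.3 kb, at D5 and D6) and chr11:84523888-84524385, inside the gene 1297 to 1315 bp after the start (D7 and D8). Both longer-lived upstream sites were thus called at D2 and D3, not at D4 or D5, and again at D6 and D7. A D7 site lay at -9.96 kb. Summits of that site and of the start site fell in the long noncoding RNA gene Lhx1os.

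Evx1, an even-skipped homeodomain factor of the posterior streak, lies on the plus strand at chr6:52313498-52318389, beside the HoxA cluster, with Hoxa13 52.6 kb to its left, and had 9 sites. The start site, chr6:52313462-52315154, was called at D0 and D2 to D8, with a fold enrichment of 3.12 at D0 and of 3.05, 5.59, 2.85, 4.11, 3.46, 3.40 and 3.09 from D2 to D8. These were low ranks, from the 1.60th percentile at D4 to the 43.6th at D3. At D0, D3 and D6 the values belong to summits inside the gene, 1181, 1408 and 1326 bp after the start. In the other lists the summit lay 229 to 360 bp after it. A separate D3 peak over the start had a fold enrichment of 2.95, at the 5.88th percentile. The D0 peak did not reach the start. A site at -22.2 to -22.1 kb, chr6:52290940-52291888, was called in the same 8 lists, a set that 66 sites of all genes had. Its fold enrichment was 4.01 at D0 and 4.25, 7.97, 4.58, 5.55, 5.56, 6.72 and 6.33 from D2 to D8. Within each of the 8 lists the upstream site ranked above the start site. A nearer upstream site, chr6:52305757-52306421 (-7.43 to -7.20 kb), was called at 2i, D3, D4, D5, D7 and D8 with 5.51, 9.27, 5.41, 4.23, 5.19 and 5.58.

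Downstream of Evx1, chr6:52332422-52332999 (19.3 to 19.4 kb after the start) was called from D4 to D6 and chr6:52326652-52327110 (13.3 to 13.5 kb) at D5 and D6. Inside the gene, chr6:52316593-52317022 was called at 2i and D3. Single-list sites lay at -2.04 kb (D3), 8.61 kb (D3) and 9.43 kb (D7). Summits of the first of these and of the start site fell in the long noncoding RNA gene Evx1os. Neither D10 nor D15 held an Evx1, Lhx1, Mixl1 or T peak by the rule.

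**Figure D3:**
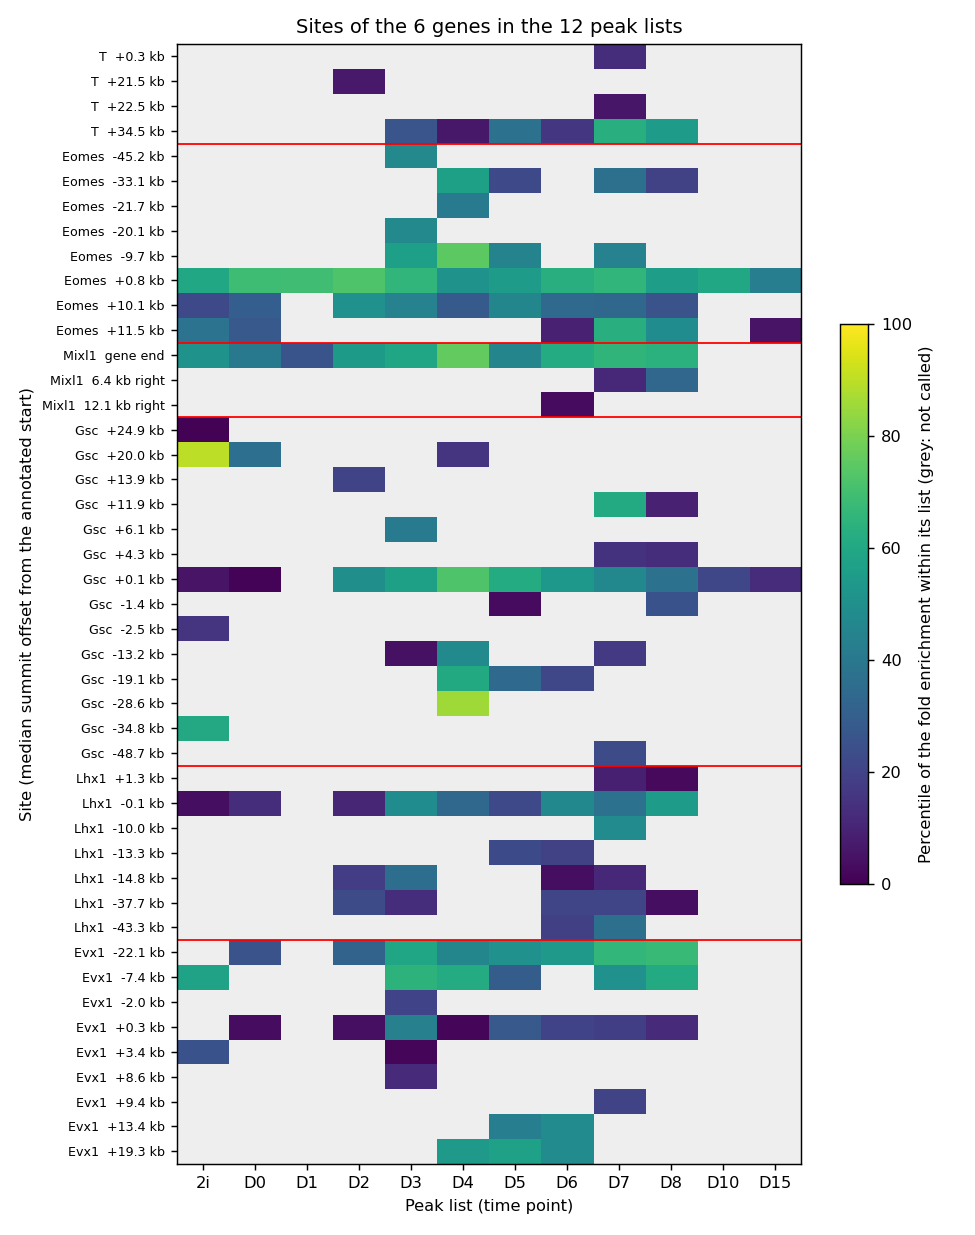
The 45 sites (down, by gene and median summit offset from the start in kb; Mixl1 by distance from its right end) in the 12 peak lists in time order (across). Colour is the percentile of the strongest peak's fold enrichment within its own list and grey means not called; D10 holds 2 coloured cells and D15 holds 3.

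Counted over all 6 genes, sites were few at D1, D10 and D15. Their share stood furthest above that of all sites at D3 and D6, both at the deposited list lengths and at equal ones. At the deposited lengths the streak gene lists described below were also above all sites at D3 and D6. So were the neural ectoderm markers, with 70.0% of their sites called at D3 and 45.0% at D6. Of the 45 sites 12 were called at 2i, where 34.1% of all 96763 sites were, 9 at D0 (28.3% of all sites) and 2 at D1 (21.4%). The number was 11 at D2 (29.3%), 19 at D3 (32.2%), 17 at D4 (37.3%) and 16 at D5 (32.1%). It was 17 at D6 (26.3%), 25 at D7 (50.3%) and 17 at D8 (40.7%), then 2 at D10 (24.1%) and 3 at D15 (23.9%). At D4, D5 and D8 the factors' share (37.8%, 35.6% and 37.8%) was near that of all sites. D1, D6 and D10 are lists of nearly equal length, with 31324, 32791 and 32641 peaks, and held 2, 17 and 2 of the sites. In peaks, the 6 genes had 0.638, 8.54 and 0.613 per 10000 peaks of those lists. In the other lists it was 2.82 (2i), 2.23 (D0), 3.05 (D2), 6.54 (D3), 3.92 (D4), 5.77 (D5), 4.03 (D7), 3.92 (D8) and 1.10 (D15).

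**Figure D4:**
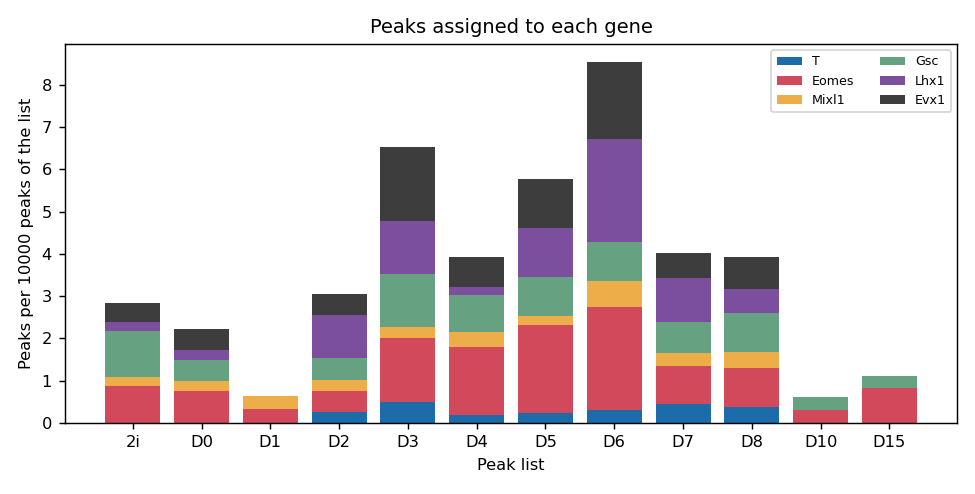
Peaks assigned to each of the 6 genes per 10000 peaks of the list (stacked bars), for the 12 peak lists in time order. The stack is highest at D6 (8.54) and lowest at D10 (0.613) and D1 (0.638), and at D10 it holds 1 Eomes and 1 Gsc peak.

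The statistical weight of a peak also differed between lists. Among peaks with a fold enrichment of 4.9 to 5.1 the median −log10 q was 5.26 at 2i, 5.31 at D4 and 6.17 to 6.44 at D0, D1, D2 and D5, and it was 7.46 to 9.26 at D3, D6, D7, D8, D10 and D15. Of the lists with few of the sites, D1 had a median of 6.44, D10 of 8.57 and D15 of 8.96. Whether these differences affect the counts was not tested. When each list was cut to its 31324 peaks of highest −log10 q, 28 sites of the 6 genes remained. Of these 7 were called at 2i (36.8% of all sites so defined), 5 at D0 (34.5%), 2 at D1 (32.8%) and 6 at D2 (36.2%). The number was 15 at D3 (40.3%), 10 at D4 (35.0%), 12 at D5 (37.2%) and 15 at D6 (38.5%). D7 and D8 held 8 each (39.2% and 38.3% of all), D10 held 2 (35.5%) and D15 held 1 (31.7%). The low counts at D1, D10 and D15 were thus also present at equal list length, while the counts at D7 and D8, 25 and 17 before, were then close to that at 2i.

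By the course of the calls, 15 of the 45 sites were transient, meaning called in 2 or more lists in a row between D1 and D8 and missing from 2i, D0, D10 and D15. Of all sites 15.6% were. The streak gene lists described below also exceeded that share, and so did markers of cardiomyocytes, definitive endoderm and neural ectoderm. Of cardiomyocyte sites 17 of 64 (26.6%) were transient, of definitive endoderm sites 5 of 25 and of neural ectoderm sites 5 of 20. Of naive pluripotency sites 9 of 78 (11.5%) were. The 15 were divided among all 6 genes: 5 at Lhx1, 4 at Gsc, 2 each at Eomes and Evx1 and 1 each at T and Mixl1. A further 11 sites were called at 2i or D0 and at neither D10 nor D15 (23.1% of all sites), 4 each at Gsc and Evx1 and 1 each at Eomes, Mixl1 and Lhx1. No site was called at D10 or D15 without a call at 2i or D0, where 12.7% of all sites were. The Eomes start site was called in all 12 lists, as 10.7% of all sites were. A single list held 18 of the 45 sites (39.6% of all sites), and 5 of those 18 were in D3, which supplied 8.00% of all single-list sites, and 5 in D7, which supplied 19.2%. The 5 in D7 include the summit at the T start. Its region was called in 8 lists, D0 and D2 to D8, when the peaks of the predicted gene are counted. The transient count, like the number of sites, changed with list length and with the lists used. It was 8 of 28 with equal numbers of peaks (11.1% of all sites) and 10 of 40 without the D7 list (9.73%). With the predicted gene left out it was 16.

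The sites were also divided by position. A site counted as at a gene end if a summit lay within 1 kb of either annotated end in any list. It then counted as such in all its lists, so the Eomes site beyond the gene is included where its summits lay farther out. The 6 genes had 7 such sites, of which 1 was called in all 12 lists (48.0% of all gene-end sites) and 2, those of Eomes and Gsc, at D10 or D15 (73.1%). The T site among the 7 is the D7 summit alone, since the other peaks at that start belong to the predicted gene, and no other peak was called there at D10 or D15 either. Of the 38 sites away from gene ends 15 were transient (17.3% of all such sites) and 1, the Eomes site 11.5 kb after the start, was called at D10 or D15 (20.4%). Both positions therefore had fewer late calls in proportion than all genes had.

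**Figure D5:**
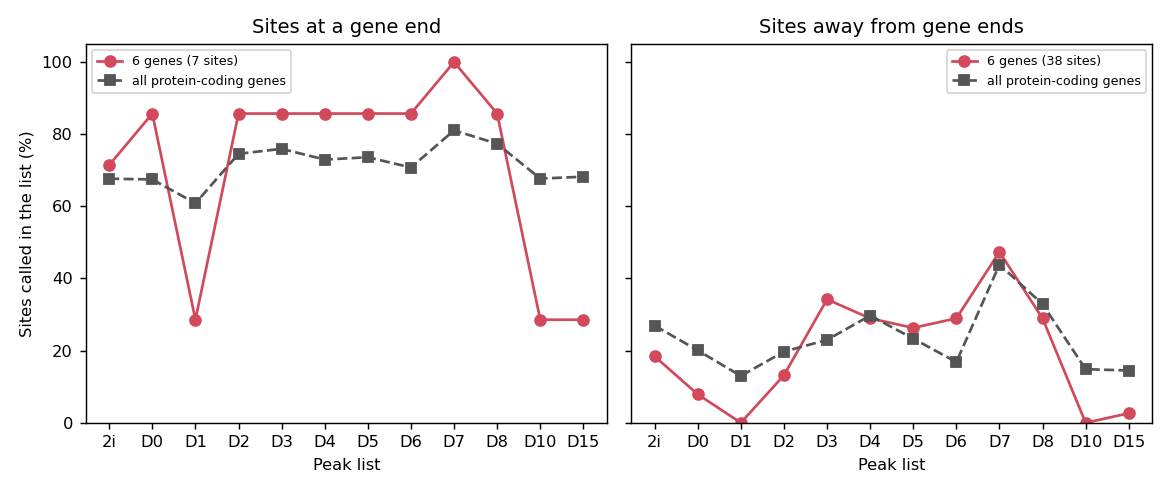
Percent of sites called in each of the 12 peak lists in time order, for the 6 genes (circles, solid line) and all protein-coding genes (squares, dashed line), at gene ends on the left and away from them on the right. The factors' sites at D10 are 2 of 7 at gene ends and 0 of 38 elsewhere.

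From list to list, 7 of the 9 sites called at D0 were not called at D1 (36.7% of all sites called at D0), the exceptions being the Eomes and Mixl1 gene-end sites. Relative to the list before, 9 of the 11 sites at D2 were new (43.9% of all sites called at D2), 10 of the 19 at D3 (26.2%) and 13 of the 25 at D7 (53.8%). The 13 include the T summit at 0.285 kb, whose region was already called at D6 through peaks of the predicted gene. The D7 share is near that of all sites. Of the 17 sites called at D8, 15 were not called at D10 (46.8% of all sites called at D8). The 2 that were called at both are the starts of Eomes and Gsc.

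Some sites of different genes had the same set of lists. D7 and D8 alone were shared by 2 Gsc sites and 1 each at Mixl1 and Lhx1, a common set that 4402 sites of all genes had. D4 to D6 was shared by the Gsc site at -19.1 kb and the Evx1 site at 19.3 kb, with 189 sites of all genes. D5 and D6 was shared by the Lhx1 site at -13.3 kb and the Evx1 site at 13.4 kb (157 of all genes). The set 2i, D0 and D2 to D8 was that of the Lhx1 start and of the Eomes site beyond the gene (175 of all genes).

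Genes around the factors in the streak network were counted from lists of gene names. The signals, 14 genes that include Nodal, Wnt3, Fgf8 and Bmp4, had 71 sites, of which 21 (29.6%) at 9 genes were transient (15.6% of all sites). Of the 71, 25 were called at 2i (35.2%), 16 at D0 (22.5%), 12 at D1 and 34 at D3 (47.9%). There were 27 at D6 (38.0%), 32 at D7 (45.1%), 13 at D10 and 12 at D15. Of all sites 34.1% were called at 2i, 28.3% at D0, 32.2% at D3, 26.3% at D6 and 50.3% at D7. Fgf8, which drives cells out of the streak, and Bmp4, which induces mesoderm, had 4 transient sites each. Nodal, the TGF-beta family signal that starts the streak, and Wnt3, the WNT that maintains it, had 3 each. Another 20 streak and mesoderm factors had 132 sites, of which 32 (24.2%) at 14 genes were transient. Of the 132, 50 were called at 2i (37.9%), 26 at D1, 64 at D3 (48.5%) and 49 at D6 (37.1%). There were 79 at D7 (59.8%), 18 at D10 and 20 at D15. Lhx5, a LIM-homeodomain relative of Lhx1, had 6 transient sites, Tbx3, a T-box repressor, 5, Snai1, which drives epithelial cells to leave their layer, 4, and Lef1, a WNT effector, 3. At D1, D10 and D15 the signals had 16.9%, 18.3% and 16.9% of their sites called and these factors 19.7%, 13.6% and 15.2%, against 21.4%, 24.1% and 23.9% of all sites, so their D1 shares were nearer to the background than the 2 of 45 sites of the 6 genes.

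Markers of naive pluripotent cells, cardiomyocytes, definitive endoderm and neural ectoderm were counted in the same way. Of 78 sites of 8 naive pluripotency genes 53.8% were called at 2i and 10.3% at D15, where all sites had 34.1% and 23.9%. Their gene ends did not follow 1 course: Pou5f1 was called from 2i to D4, Nanog and Zfp42 at 2i and from D1 to D8 (Zfp42 also at D0), Klf4, Tfcp2l1 and Sox2 in all 12 lists, Esrrb at D7 and D8, and Dppa3 in none. Of 64 sites of 8 cardiomyocyte genes 18.8% were called at 2i, 51.6% at D7 and 17.2% at D15, against 34.1%, 50.3% and 23.9% of all sites. At D10 or D15 gene ends of 3 of the 8 were called, Tnnt2 (from D5 on), Actn2 and Ryr2 (both in all 12 lists), while Myh7, Nppa, Myl7 and Nkx2-5 had gene-end peaks in earlier lists and Myh6 had none. Of 25 sites of 3 definitive endoderm genes 60.0% were called at D4, 72.0% at D7 and 8.00% at D15, against 37.3%, 50.3% and 23.9% of all sites. Foxa2 alone had 14 of these 25 sites. Of 20 sites of 2 neural genes 10 were called at 2i, 16 at D2, 14 at D3, 16 at D7 and 3 at D15. The shares were 80.0% at D2, 70.0% at D3, 80.0% at D7 and 15.0% at D15. Of all sites 34.1% were called at 2i, 29.3% at D2, 32.2% at D3, 50.3% at D7 and 23.9% at D15. The D3 share of the neural sites was also above that of the 6 factors' sites, 42.2%. How far a mixture of cell types contributes to the factors' counts was not tested.

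The genes whose peaks per 10000 were distributed most like those of the 6 factors together were Jakmip3 (Pearson r = 0.96), Tspear (0.96) and Gpr26 (0.94), over 12 lists and 14474 genes with at least 10 peaks. The r values are descriptions of 12 lists that share a line, a peak caller and their own lengths. The closest to T were Krt77 and Tap2 (0.98 and 0.97), to Eomes Jakmip3 and Camk2a (0.91 each), to Mixl1 Gabrq and Evx2 (0.90 and 0.89), and to Gsc Lhfpl2 and Arhgap40 (0.90 and 0.87). The closest to Lhx1 were Sult5a1 and Nme5 (0.95 and 0.94), and to Evx1 Gpr26 and Tspear (0.95 and 0.93). Among the factors the pair with the highest r was Lhx1 and Evx1 (0.86) and the pair with the lowest was Mixl1 and Gsc (0.40).

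At the 50 kb limit, the farthest peak inside it was the Gsc site 48.7 kb from the gene body (D7, fold enrichment 3.65), and the nearest outside it was 50.6 kb from Evx1 (D7, 3.91).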

How the data were processed

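ATAC-seq libraries of 24 samples were processed by the authors with MACS2 2.1.1, Bowtie2 2.3.2, cutadapt 2.10, Picard and SAMtools 1.5 on mm10, per the submitters' processing notes, which give no order or settings. The deposited files used were 12 narrowPeak lists, 1 per time point and named by the labels of both replicates, and how the replicates were combined is not given in the sources used here. Each deposited peak has a fold enrichment, a ratio of signal over background, and a −log10 q value, whose smallest value was 1.30 to 1.31 per list (q near 0.05). Here summits were assigned to RefSeq GRCm38.p6 gene bodies, with no genome sequence beyond the promoter table, and sites were counted in Python 3.11.15 with pandas 2.3.3 and numpy 2.4.6. The assignment of summits to genes by position was checked on simulated data. The members and gene lists were chosen with earlier results of these data known. Named were every site in at least 2 lists or at a gene end, the genes with the highest r, and the up to 4 genes per list with most transient sites. Alternatives were a −log10 q of at least 5, equal numbers of peaks, limits of 20 and 100 kb, summit clusters, any overlapping peak, and leaving out D4, D7 or the predicted gene.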

Additional observations from a re-analysis of the deposited data

How the results depend on the processing

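The count of 1 site in all 12 lists was obtained under all 9 alternatives. The number of sites, 45, was 28 with equal numbers of peaks per list and 68 within 100 kb. Early sites without a late call, 11, numbered 5 when −log10 q had to reach 5 and 7 with equal numbers. Late sites without an early call, 0, numbered 1 with equal numbers and 2 within 100 kb. Transient sites, 15, numbered 8 with equal numbers, and 10 without the D7 list or at the stricter q. Under settings chosen for them after seeing the data, start windows overlapped by a peak fell to 0 of 5 at 2i, D0, D10 and D15, to 2 at D2 and to 2 at D4 at the stricter q. Cut to equal numbers they were 0 at 2i and D15, 1 at D0 and 2 at D4. Fewer peaks or a wider limit are part of these settings by construction, and any further cause was not tested. Without D4 or D7 the lists on either side were treated as consecutive. No paired analysis was possible because both replicates of a time point share 1 peak list, and for the same reason no replicate could be left out. Read depth may limit the counts: it is not given, its effect was not tested, and a site missing from a list may lie just under its threshold.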
